A study of Mus musculus with 5 samples.

Results

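Stem-like cells were sought among unfractionated Lin-kit+ cells, the lineage-negative, CD45.2-positive, c-kit-expressing progenitor fraction of mouse bone marrow. A cell was counted as stem-like when it held at least 1 UMI (unique molecular identifier, the tag that marks 1 captured transcript) of 2 or more of 8 stem cell genes, of fewer than 3 of 7 platelet genes, and none of Flt3 or Dntt. This gate kept 331 of 11581 Lin-kit+ cells, out of 12893 cells in all. Because the cells were chosen by measured transcripts, the levels of its 17 genes describe the choice of the cells and were not tested.

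Hematopoietic stem cells sit at the top of the blood hierarchy, divide rarely, and give rise to multipotent progenitors that divide more and start to transcribe genes of single lineages. In the mouse they lack mature lineage markers, carry c-kit and Sca-1 (the product of Ly6a) on their surface, and are separated from multipotent progenitors by the SLAM receptors CD150 (Slamf1), present on stem cells, and CD48, gained by progenitors. CD34 appears as adult mouse stem cells turn into progenitors. A Lin-kit+ sort holds all of these cells, and most of it is made of committed progenitors.

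The cells came from the marrow of untreated mice, 20 weeks old, with the genotype Fgd5CreERT2/+Rosa26Tomato/+. In these mice a fluorescent protein and a tamoxifen-inducible Cre are expressed from the Fgd5 locus, so the reporter follows Fgd5 transcription, and both the Lin-kit+ and the reporter-positive samples carried this allele. There were 3 libraries of Lin-kit+ cells, called a, b and c below, with 1339, 4095 and 6147 cells. A pair of libraries held reporter-positive cells, 1 of Fgd5+ cells (793 cells) and 1 of HSC-Fgd5+ cells (519 cells), which had additionally been sorted as Sca-1+CD150+CD48-. The deposited table marks libraries only by a barcode suffix, and each suffix was assigned to a population by how many cells it had. Title and source of the 2 reporter-positive samples disagree on which had the full HSC gate, so both were treated as 1 group. The sources used here do not say whether the libraries came from separate mice, so SDs and p-values measure the spread between libraries, which may be technical.

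The genes that define the cells lie on several chromosomes (mm10, genes located in the GENCODE annotation of the same assembly). Procr, the endothelial protein C receptor, is at chromosome 2, 155751117 to 155755471. Hlf, a PAR bZIP transcription factor, spans chromosome 11, 90336536 to 90390895, and Meis1, a homeobox cofactor of HOX proteins, lies on the same chromosome at 18879817 to 19018985, as does Hoxb5 at 96303336 to 96306121. Mecom, a zinc finger factor needed for stem cell maintenance, occupies chromosome 3, 29951296 to 30548008. Mllt3, a chromatin reader, is at chromosome 4, 87769925 to 88033364, and Ctnnal1, alpha-catulin, at 56810935 to 56865188 of that chromosome. Ly6a lies on chromosome 15, 74994877 to 74998031. The SLAM genes Cd48 (171682009 to 171705258) and Slamf1 (171767127 to 171801184) are neighbours on chromosome 1.

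The gate kept 42 cells of library a, 106 of b and 183 of c. These were 3.14% (95% Wilson interval 2.33 to 4.21), 2.59% (2.14 to 3.12) and 2.98% (2.58 to 3.43) of the library, a mean of 2.90% ± 0.282 (SD, n = 3 libraries). The intervals of the 3 libraries overlapped. Applied to reporter-positive cells, the same gate kept 686 of 793 Fgd5+ cells (86.5%) and 417 of 519 HSC-Fgd5+ cells (80.3%). Stem-like cells held fewer UMIs than the rest of their libraries. Their medians were 4941, 2934.5 and 3455 UMIs per cell in a, b and c, against 6639, 4463 and 5563 in the other Lin-kit+ cells. Their median share of mitochondrial transcripts was 3.26% to 3.52%, against 3.16% to 3.23% in the other cells. The share depended on depth and on the threshold: after each cell was thinned to 1000 UMIs it was 0.618%, and with at least 3 stem genes required it was 0.780% (97 cells). In total 62 barcodes occurred in more than 1 library. They marked 125 cells, 4 of them stem-like and none of these shared with a reporter-positive cell. A doublet caller marked 154 cells, 6 of them stem-like.

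Most stem-like cells lay just inside the gate. Exactly 2 stem genes were detected in 234 (70.7%), 3 in 72, 4 in 19 and 5 in 6, whereas reporter-positive cells most often held 4 (319 cells of 1312). Just outside the gate, 1325 Lin-kit+ cells held exactly 1 stem gene and met its other parts. Meis1 was found in 209 of the 331 cells (63.1%), Hlf in 165 (49.8%), Ly6a in 144 (43.5%), Mecom in 92 (27.8%), Mllt3 in 85 (25.7%) and Procr in 63 (19.0%). Hoxb5 and Ctnnal1 were rare, with 12 and 20 cells. The most frequent pair was Hlf with Meis1 (95 cells), followed by Hlf with Ly6a (68) and Ly6a with Meis1 (59). Of the 239 Ly6a UMIs, 45 came from 1 cell. Levels are given in CPM, the UMIs of a gene out of all UMIs of a set of cells, scaled to a total of 1000000. The stem genes were lower here than in reporter-positive cells, apart from Ly6a, whose levels in library a and in the reporter-positive libraries were close. Hlf stood at 137, 177 and 143 CPM in libraries a, b and c, against 303 in Fgd5+ and 306 in HSC-Fgd5+ cells. Mllt3 stood at 53.1, 70.3 and 77.0 CPM against 293 and 304, and Ly6a at 250.4, 193 and 119 against 267 and 264.

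When cells were clustered without the 17 genes of the gate, the stem-like cells fell into 14 of 16 clusters, and 281 of the 331 (84.9%) into 5. The largest group, 149 cells (45.0%), lay in a cluster led by Wfdc17, Ccl5, Myl10, Gm5111, Il12a and Gpr171, which held 7.21% of all Lin-kit+ cells. It took 42.9%, 50% and 42.6% of the stem-like cells of libraries a, b and c. In that cluster 48.3% of Lin-kit+ cells held a Dntt UMI, against 2.51% elsewhere, and 29.8% held an Flt3 UMI, against 4.74%. Dntt encodes the terminal transferase of lymphoid precursors and Flt3 a cytokine receptor of multipotent and lymphoid-primed progenitors.

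A cluster led by Prg2, Prg3 and Cd34 held 54 stem-like cells (16.3%). Among all stem-like cells, Prg2 itself was found in 4 and Prg3 in 2. Another cluster, led by H1f0, Nrgn and Cenpf, in which 90 reporter-positive cells also lay, held 39 stem-like cells (11.8%). A further 20 lay in a cluster led by Gm15915, Aqp1 and Mfsd2b. Platelet genes of the gate were more frequent in these clusters led by H1f0 and by Gm15915. In the H1f0 cluster 34.8% of Lin-kit+ cells held a Pf4 UMI, against 2.64% elsewhere, and 36.4% an Itga2b UMI, against 3.63%. In the Gm15915 cluster these shares were 19.8% against 1.97% and 17.3% against 3.26%. The cluster that took in 1204 of the 1312 reporter-positive cells, led by Meg3, Ltb, Gimap1 and Pdzk1ip1, held 29 Lin-kit+ cells, of which 19 (65.5%) were stem-like. These 19 were 5.74% of the stem-like cells. No stem-like cell fell into the clusters led by Ltf and Lcn2 or by Vcam1 and Rgcc. The remaining 50 were spread over 9 clusters, among them 2 cells of a cluster led by Jchain and Mzb1, which held all 1197 Jchain UMIs seen in stem-like cells.

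**Figure D1:**
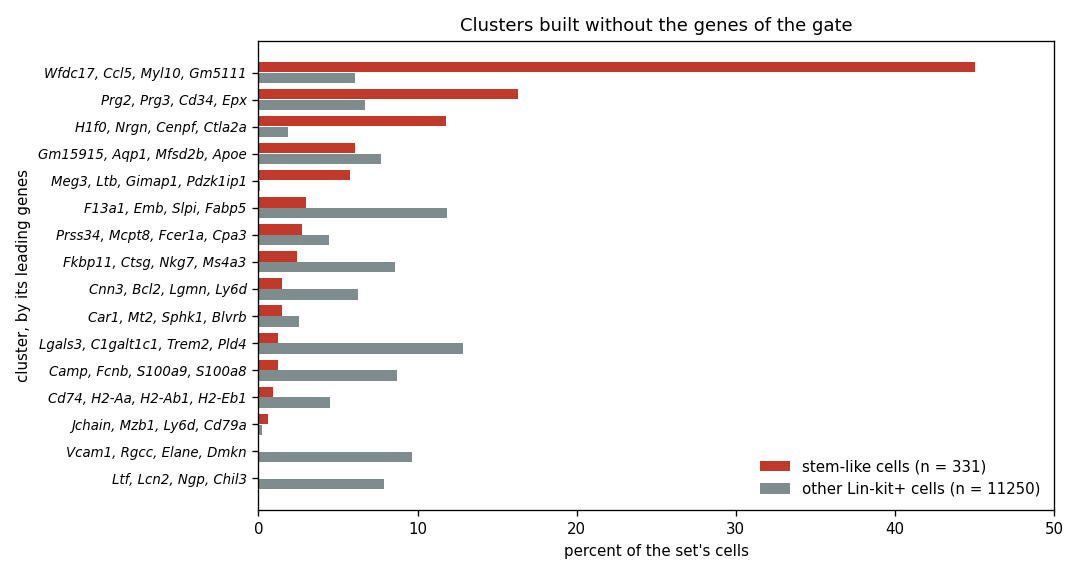
Percent of the 331 stem-like and of the 11250 other Lin-kit+ cells (x axis) in each of 16 clusters, which were built without the genes of the gate and are named by their 4 leading genes (y axis). Of the stem-like cells, 45.0% lay in the cluster led by Wfdc17 and Ccl5, and 5.74% in the cluster led by Meg3 and Ltb that held most reporter-positive cells.

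Levels of several genes that the gate did not use differed with the number of stem genes detected in a cell, which is given here as a description over the Lin-kit+ cells that met the platelet and the Flt3 and Dntt parts of the gate (Poisson intervals cover counting error only). Myct1, expressed in stem and endothelial cells, stood at 5.65 CPM (95% interval 5.0002 to 6.36) in the 8632 such cells with none of the stem genes, 26.0 (22.5 to 29.8) with 1, 83.9 (67.6 to 103) with 2, 131 (93.5 to 179.7) with 3 and 188 (108 to 306) with 4 or more. The last lay within counting error of the 205 in reporter-positive cells. Esam, an adhesion molecule of the same cell types, ran over the same bins through 0.575, 3.71, 29.2, 50.6 (28.3 to 83.4) and 47.1 (12.8 to 121) CPM, against 108 in reporter-positive cells.

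Elane, the gene of neutrophil elastase, ran the opposite way, through 10576, 5504, 2442, 637 and 129 CPM, against 36.9 in reporter-positive cells. Mpo, myeloperoxidase, did so too, from 5021 with none to 212 with 4 or more. Cd48 differed from both: it stood at 187 with none, 199 with 1 and 198 with 2 stem genes, then at 108 (73.8 to 152) with 3 and 35.3 (7.28 to 103) with 4 or more, against 4.74 in reporter-positive cells. The same direction was seen in each library. Cd48 stood at 178, 191 and 208 CPM in the cells of a, b and c with exactly 2 stem genes. In those with 3 or more it stood at 77.1, 65.2 and 109. These levels rested on only 3, 8 and 24 UMIs, so the size of the step in single libraries is uncertain. Cd34 ran through 80.6, 146, 303, 428 (357 to 509) and 341 (229 to 490). The intervals with 3 and with 4 or more stem genes overlapped, so a fall between them is not resolved. In each bin inside the gate Cd34 stood above the 91.4 of reporter-positive cells. The bins differed in depth, with medians from 5301.5 UMIs per cell with none of the genes to 2943 with 4 or more, and the part of depth in these levels was not tested.

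**Figure D2:**
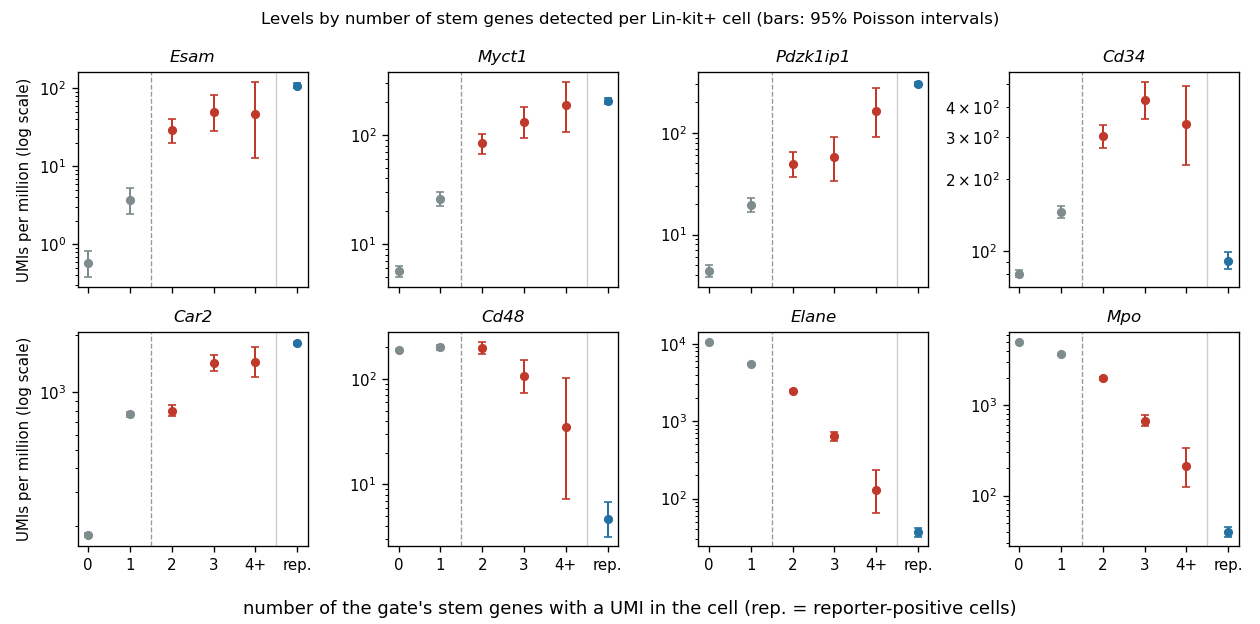
Level of 8 genes outside the gate (y axes, CPM, log scale) in Lin-kit+ cells that met the rest of the gate, with 0, 1, 2, 3 or 4 and more of the gate's stem genes and in reporter-positive cells (x axis). Points are pooled over libraries, bars are 95% Poisson intervals, and the dashed line is the gate's threshold. Myct1 and Pdzk1ip1 were higher, and Elane and Mpo lower, in bins with more stem genes, while Cd48 was level up to 2 stem genes (198) and lower beyond (108 and 35.3).

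To compare stem-like with other Lin-kit+ cells by transcripts that had not chosen them, each UMI was assigned at random to 1 of 2 equal parts. The gate was applied to the first part and levels were taken from the second, called held-out UMIs. The first part alone kept 165 cells (22, 49 and 94 in a, b and c), of which 151 were stem-like by all UMIs. In the held-out UMIs 41 of the 165 (24.8%) passed the gate again, against 110 of the other 11416 cells (0.964%). These other cells still included the stem-like cells by all UMIs that the first part had not kept, also in the tests that follow. Levels given in all UMIs use the gate on all UMIs instead. Of 9297 genes tested with edgeR (quasi-likelihood test with library as a block, Benjamini-Hochberg adjusted p under 0.05), 227 were higher (2.44%) and 636 lower (6.84%) in stem-like cells, leaving out the genes of the gate. Of all calls 26.3% were thus higher, against 47.3% with DESeq2 and 63.9% with edgeR scaled by library totals. The median log2 fold change of all genes was -0.14 under the main scaling and 0.21 under library totals, and fold changes are to be read against these. With all UMIs, and as a description only, 145 of 10142 genes (1.43%) were at least 2-fold higher in stem-like cells in each of the 3 libraries and 162 (1.6%) at least 2-fold lower.

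Reporter-positive cells give the other end of the comparison. Of 7379 genes tested with edgeR on all UMIs, 3 libraries of stem-like cells against 2 of reporter-positive cells, 897 were higher (12.2%) and 959 lower (13%) in stem-like cells. Of all calls 48.3% were higher, against 65.4% with DESeq2 and 34.1% with library totals, and the median log2 fold change of all genes was -0.06, or -0.19 with library totals. The sets come from different libraries, so the population and the library cannot be told apart. Only the stem-like cells had passed the gate; when reporter-positive cells were held to it too, 2142 genes were called. Both comparisons use the stem-like cells and are given side by side.

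Taken as a list, genes of long-term stem cells stood in the stem-like cells at a level between those of the other sets. They summed to 292, 380 and 280 CPM in a, b and c. The sums were 33.5 to 37.4 in other Lin-kit+ cells, and 1266 and 1405 in Fgd5+ and HSC-Fgd5+ cells. This holds for the list and was not shown for each gene. Of 16 such genes outside the gate, 11 of the 12 tested were lower than in reporter-positive cells and none was higher (median log2 fold change -2.29). Against other Lin-kit+ cells in held-out UMIs, 4 of the 8 tested were higher, among them Myct1, Esam and Pdzk1ip1, and none lower (median 2.60).

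Myct1 stood at 110.0, 117 and 87.8 CPM in the stem-like cells of a, b and c, at 9.24, 10.6 and 10.6 in the other Lin-kit+ cells, and at 202 and 213 in Fgd5+ and HSC-Fgd5+ cells. The 3 sets did not overlap. In held-out UMIs it stood at 121, 81.0 and 112 against 11.1, 12.0 and 11.5, a log2 fold change of 2.85 ± 0.37 (SE, adjusted p = 1.86e-12), and against reporter-positive cells it was lower by a log2 fold change of -0.90 ± 0.16 (adjusted p = 0.00302). Esam stood at 49.3, 36.5 and 28.9 CPM, against 1.23, 1.53 and 1.84 in other Lin-kit+ cells and 105 and 114 in reporter-positive cells. In the tests it was higher by 4.30 ± 0.69 (held-out, adjusted p = 2.44e-08) and lower by -1.52 ± 0.21 (adjusted p = 0.00098).

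Several defining genes were nearly absent. Slamf1 was found in 14 of the 331 cells (4.23%), against 14.3% of reporter-positive and 1.16% of other Lin-kit+ cells. Its level, 3.79, 15.6 and 10.8 CPM, was below the 35.7 and 38.3 of reporter-positive cells (log2 fold change -1.65 ± 0.33, adjusted p = 0.00569). Vwf, the von Willebrand factor gene of platelet-biased stem cells, gave 0, 1 and 4 UMIs in a, b and c, against 57.6 and 58.6 CPM in reporter-positive cells (-3.97 ± 0.40, adjusted p = 0.000201). Fgd5 itself gave 0, 2 and 2 UMIs and was not tested. A transcript of this abundance is missed in most cells at this depth, and it was found in 3.51% of reporter-positive cells. Clec1a, with 0, 1 and 9 UMIs against 75.1 and 87.2 CPM, and the CDK inhibitor gene Cdkn1c, with 0, 1 and 4 UMIs against 27.8 and 24.5 CPM, were lower as well.

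**Figure D3:**
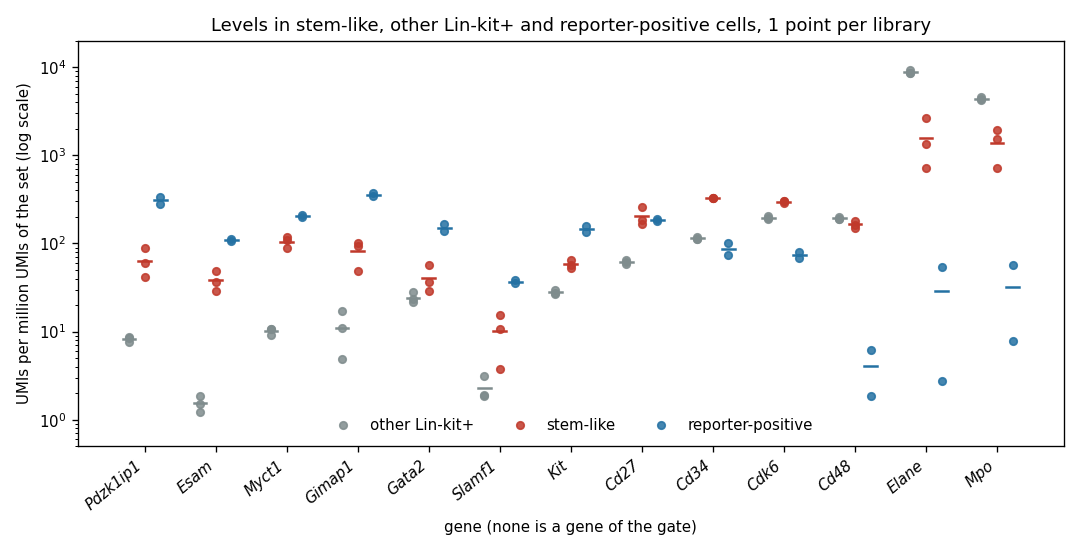
Level of 13 genes outside the gate (x axis) in CPM (y axis, log scale) in other Lin-kit+, stem-like and reporter-positive cells. Each point is 1 library and each bar the mean. For Pdzk1ip1, Esam, Myct1 and Gimap1 the stem-like libraries lay between the other sets, Cd27 overlapped with reporter-positive cells, and Cd34 was highest in stem-like cells (326 to 332).

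The surface genes used to grade stem cells and progenitors did not move together. Cd34 stood at 330, 326 and 332 CPM in stem-like cells, against 118, 114 and 112 in other Lin-kit+ cells and 101 and 73.8 in reporter-positive cells. It was above both other sets (log2 fold change 1.15 ± 0.20 in held-out UMIs, adjusted p = 5.67e-07, and 2.02 ± 0.17 against reporter-positive cells, adjusted p = 7.54e-05), the first of these calls being lost without library c. Cd48 stood at 163, 151 and 182 CPM, against 6.24 and 1.85 in reporter-positive cells, a log2 fold change of 5.27 ± 0.30 (adjusted p = 1.12e-05). One of the reporter-positive libraries had been sorted as CD48-, and Cd48 was low in both. Against other Lin-kit+ cells, at 189.8, 188 and 199 CPM, Cd48 was slightly lower. In held-out UMIs it stood at 207, 81.0 and 112 against 193, 186 and 198, so that library a was not lower. The log2 fold change was -1.01 ± 0.24 (adjusted p = 0.000916), and the call was lost with DESeq2, without library b (-0.86), without library c (-0.93) and with the 2 parts of the UMIs exchanged (-0.67).

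Cd27, a TNF receptor family member of stem and multipotent cells, stood at 186, 258 and 168 CPM. It overlapped with the 181 and 189.7 of reporter-positive cells (0.24 ± 0.18, adjusted p = 0.364) and was above other Lin-kit+ cells in held-out UMIs (1.57 ± 0.22, adjusted p = 1.43e-10). Kit, the stem cell factor receptor on which all libraries were sorted, stood at 64.5, 57.3 and 52.9, below reporter-positive cells (-1.24 ± 0.17, adjusted p = 0.00096). Its higher level than in other Lin-kit+ cells (1.06 ± 0.35, adjusted p = 0.0325 in held-out UMIs) was lost with DESeq2, with no filter on low counts, with at least 3 stem genes, without library a, without library c, and with both other ways of dividing the UMIs. Ptprc, the gene of CD45, did not differ from other Lin-kit+ cells beyond its error (0.07 ± 0.35, adjusted p = 0.946).

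Of 8 multipotent progenitor genes, 5 were higher than in other Lin-kit+ cells (Adgrg1, Angpt1, Cd27, Cd34 and Sox4) and Cd48 was lower, as given above. Against reporter-positive cells Cd34, Cd48, Cdk6 and Myc were higher and Adgrg1 and Angpt1 lower. Cdk6, the G1 kinase that rises when stem cells prepare to leave quiescence, stood at 303, 286 and 304 CPM, against 79.6 and 69.2 in reporter-positive cells (2.11 ± 0.15, adjusted p = 2.49e-05). It did not differ from other Lin-kit+ cells beyond its error (0.08 ± 0.20, adjusted p = 0.886). Angpt1, the angiopoietin gene, stood at 102, 99.0 and 108, between 14.9 to 16.4 in other Lin-kit+ and 209 to 215 in reporter-positive cells.

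Transcription factors of stem and progenitor cells were lower than in reporter-positive cells for 12 of 17 tested genes and higher for none (median log2 fold change -1.12). The count was 7 with DESeq2 or without the Fgd5+ library and 8 without library c. Against other Lin-kit+ cells 5 of 17 were higher, among them Erg, Gfi1b, Lmo2 and Zfp521, and none lower (median 1.40). This count was 2 without library a and 3 without b, without c or with either other division of the UMIs, and the median was 0.49 with the 2 parts of the UMIs exchanged. Zfp521 lost its call in 5 settings, among them without a and without b, and Erg changed sign when at least 3 stem genes were required. Mycn, at 26.6, 15.6 and 14.4 against 191 and 204 in reporter-positive cells, was lower (-3.41 ± 0.22, adjusted p = 2.05e-05). Gata2 stood at 56.9, 28.6 and 36.1, below the 137 and 165 of reporter-positive cells (-1.86 ± 0.22, adjusted p = 0.000514). Lmo2 and Lyl1 differed between the Lin-kit+ libraries in both sets of cells. Lmo2 stood at 341, 172 and 122 in stem-like and 89.5, 52.2 and 38.9 in other cells of a, b and c, and Lyl1 at 144, 115 and 36.1 and at 116, 71.5 and 32.4. Their fold changes against reporter-positive libraries carry this spread.

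Genes of the neutrophil and monocyte lineages separated the stem-like cells from both other sets, in opposite directions. Of this list 9 of 10 tested genes were higher than in reporter-positive cells and none lower (median log2 fold change 3.80), and 10 of 14 were lower than in other Lin-kit+ cells in held-out UMIs and none higher (median -2.80). Elane stood at 725, 1328 and 2620.4 CPM in stem-like cells, against 8602, 8593 and 9280.0 in other Lin-kit+ and 54.7 and 2.77 in Fgd5+ and HSC-Fgd5+ cells. The libraries of stem-like cells themselves differed more than 3-fold. Most stem-like cells held none of it: Elane was found in 109 of the 331 (32.9%), and the 33 cells richest in it held 95.4% of its UMIs. Mpo behaved likewise, at 709, 1524 and 1955 CPM, with a UMI in 47.1% of the cells.

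Summed over Mpo, Elane, Prtn3, Ctsg and Ms4a3, the median stem-like cell devoted 0.127% of its UMIs to granule genes, against 1.26% in other Lin-kit+ and 0.0527% in reporter-positive cells. Above 1% were 33 stem-like cells (9.97%), 54.2% of other Lin-kit+ cells and 0.152% of reporter-positive cells. None of the stem-like cells in the clusters led by Wfdc17, by H1f0, by Gm15915 or by Meg3 was above 1%. Granule genes were not left out of the clustering and could have shaped these clusters, so this is a description only. Prtn3, proteinase 3, was an exception among these genes: it was found in 81.9% of reporter-positive cells, in which Elane was found in 0.457%, and in 77.3% of stem-like cells. Its fold change against reporter-positive cells was correspondingly small (1.24 ± 0.18, adjusted p = 0.0015).

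Among the 10 genes named for the largest fitted fold increase over reporter-positive cells were, besides Cd48, the granule genes Elane, Mpo, Ctsg and Ms4a3, the basophil and mast cell proteases Mcpt8 and Cpa3, and the myeloid genes Ly6c2, Cst7 and Clec12a. Ly6c2 stood at 379, 172 and 431 CPM against 11.0 and 2.77 (5.51 ± 0.48, adjusted p = 0.000101). Mcpt8 rested on few cells. It stood at 26.6, 349 and 60.2 against 0.720 and 0, and 1 cell held 71 of its 191 UMIs.

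The 10 genes named for the largest fitted decrease were at or near 0 in stem-like cells, where the order of fitted folds is not a measured ranking. Hoxb2, Sympk, Cldn5, Matn4, Kazald1, Cyp26b1, Fscn1 and Efna1 had 0 of 1478748 UMIs, Gkn3 had 1 UMI in library a and Unc45b 1 in library c. Against the floor of 3 counts over all stem-like cells (2.03 CPM), the 8 genes at 0 were at least 7.86-fold (Efna1) to 11.1-fold (Sympk) lower than in reporter-positive cells. Hoxb2 is a homeobox factor, Cldn5 a tight junction protein, Cyp26b1 a retinoic acid-degrading enzyme and Matn4 a matrix protein.

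Of the 10 genes with the largest fitted increase over other Lin-kit+ cells in held-out UMIs, Myct1 belongs to the stem cell list, and Gimap1 and Gimap6 to the GIMAP family. The others included Gm19590, Stxbp4, Bex1, Ctla2b and the globin gene Hbb-bt. Gm19590 gave 121, 92.6 and 71.5 CPM in held-out UMIs against 4.05, 4.21 and 4.54 (3.94 ± 0.47, adjusted p = 1.07e-14), and Ctla2b 86.3, 34.7 and 40.8 against 4.25, 4.86 and 3.70 (3.16 ± 0.60, adjusted p = 5.73e-06). The calls of Stxbp4 and Bex1 were lost without library c.

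The 10 genes named for the largest fitted decrease, which included Clec5a, AB124611, Ly86, Klrb1f, AI839979, Gm15987, Id1, Fam101b and Lepr, had none of the 340173 held-out UMIs of the stem-like cells. Against a floor of 3 counts over these cells (8.82 CPM), they were at least 2.56-fold (Fam101b) to 8.95-fold (Clec5a) lower. Without library c the calls of Klrb1f, AI839979, Gm15987, Id1, Fam101b and Lepr were lost, and with DESeq2 those of all of these except Klrb1f. Clec5a and Ly86 encode a lectin receptor and a Toll-like receptor accessory protein of myeloid cells. Id1 encodes an inhibitor of basic helix-loop-helix factors and Lepr the leptin receptor.

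Other lineages were represented to different degrees. Of 12 erythroid genes, Car2 and Hbb-bt were higher than in other Lin-kit+ cells in held-out UMIs. Car2, a carbonic anhydrase of stem cells and erythroid progenitors, stood at 861, 841 and 1053 CPM, between 218 to 289 in other Lin-kit+ and 1787 to 1857 in reporter-positive cells. Car1, the carbonic anhydrase of committed erythroid progenitors, stood at 121, 83.3 and 250.2, overlapping with the 205 to 299 of other Lin-kit+ cells, and was found in 6.04% of stem-like cells. It was called lower in held-out UMIs (-1.08 ± 0.23, adjusted p = 8.77e-05), but not with DESeq2, with library totals, with at least 3 stem genes, without library b or without the block. Gata1, the erythroid and megakaryocytic factor, stood at 37.9, 20.8 and 27.7, above the 6.24 and 6.0 of reporter-positive cells (2.27 ± 0.33, adjusted p = 0.00129).

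Of the megakaryocyte genes outside the gate, Nfe2 alone of 6 was called against other Lin-kit+ cells (0.94 ± 0.24, adjusted p = 0.00231), a call lost with DESeq2, with at least 3 stem genes, without library c and with both other divisions of the UMIs. Against reporter-positive cells Plek and Serpine2 were higher, Serpine2 only narrowly (adjusted p = 0.0439). Serpine2 was not called with DESeq2, library totals or the cell filter, nor without either reporter-positive library, and library totals gave 1 gene of the list higher and 2 lower. Of the lymphoid genes outside the gate, Il7r, Rag1, Rag2 and Ebf1 had no UMI, none of 4 tested genes was called against other Lin-kit+ cells, and Satb1 alone was higher than in reporter-positive cells (26.6, 26.0 and 22.9 against 5.76 and 7.85).

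Marker lists of other cell types were measured in the same way. Mast cell and basophil genes were lower than in other Lin-kit+ cells for 5 of 7 and higher than in reporter-positive cells for 4 of 4. The first count was 0 with DESeq2, 2 without library c or without the block, and 3 with library totals or either other division of the UMIs. Their summed level was 189.7 to 922 CPM in stem-like, 1386 to 1625 in other Lin-kit+ and 1.38 to 3.36 in reporter-positive cells. The upper end came from library b, in which Prss34 had 162 UMIs, against 1 and 4 in a and c, and 1 cell held 101 of the 167. Eosinophil genes summed to 2.41 to 83.5 CPM, with Epx at 0, against 142 to 205 in other Lin-kit+ cells. Of the dendritic list Siglech was at 0, and Cd74 and Cst3 were lower than in other Lin-kit+ cells in held-out UMIs. The Cd74 call was lost with another division of the UMIs and with at least 3 stem genes, and in all UMIs Cd74 was found in 13.3% of stem-like and 6.30% of other Lin-kit+ cells. H2-Aa and H2-Ab1 were high in library c (203 and 260 UMIs), and single cells held 60 of the 232 and 85 of the 312 UMIs in all. Of the T and NK list, Cd3g and Gzma were at 0, and Nkg7, which neutrophil progenitors also express, was the gene that moved. Of the endothelial list Cdh5 and Cldn5 were at 0, whereas Emcn, Egfl7 and Tie1, which stem cells also express, were higher than in other Lin-kit+ and lower than in reporter-positive cells. Of this list 3 of 4 were thus higher, but 1 without library c or with either other division of the UMIs, and 4 of 5 lower, but 2 with DESeq2 and without library a, library c or either reporter-positive library. The part of these cells in the fold changes of their own genes was not tested.

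Cell cycle genes were higher in stem-like than in reporter-positive cells. Of 12 S phase genes 10 were higher, and of 15 genes of G2 and mitosis 12, with none lower in either list (medians 0.82 and 1.05). The counts depended on single libraries: 3 and 10 were higher without the HSC-Fgd5+ library, 5 and 7 without the Fgd5+ library, and 6 and 11 without library b or without library c. With at least 3 stem genes required, which left 97 cells, 1 of 11 S phase genes and 1 of 10 genes of G2 and mitosis were higher. The medians were then 0.72 and 0.80. Rrm2, a ribonucleotide reductase subunit, stood at 34.1, 102 and 125 CPM, against 29.7 and 27.2 in reporter-positive cells (1.87 ± 0.32, adjusted p = 0.00289), and library a was close to them. Top2a, the mitotic topoisomerase, stood at 341, 263 and 229.8, against 130.0 and 158 (1.04 ± 0.19, adjusted p = 0.00348), with a UMI in 34.7% of stem-like and 15.2% of reporter-positive cells. The lists were not alike between libraries. Library a summed to 873 CPM for S phase and 2075 for G2 and mitosis, b to 1412 and 1339, and c to 1328 and 1291.

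Against other Lin-kit+ cells 4 of 13 S phase genes (Mcm5, Pcna, Rrm2 and Tyms) and 3 of 15 genes of G2 and mitosis (Aurkb, Birc5 and Ube2c) were lower in held-out UMIs, and none was higher. The counts were 1 and 1 with library totals, and 1 and 0 with DESeq2 or without library c. With the 2 parts of the UMIs exchanged they were 5 and 1 and Ube2c had the opposite sign, and with another division they were 5 and 1. Of the G1 genes, Ccnd2, the D-type cyclin of stem cells, stood at 235, 208 and 245 CPM. It was above other Lin-kit+ cells (0.86 ± 0.20, adjusted p = 0.000662) and below reporter-positive cells (-1.08 ± 0.14, adjusted p = 0.000698). The first of these calls was lost without library c, as was that of Txnip, and for Ccnd2 also with the 2 parts of the UMIs exchanged. Txnip, a thioredoxin inhibitor linked to quiescence, was placed likewise, at 152, 96.4 and 98.7 between 33.2 to 42.4 and 426 to 536.

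Genes of immune recognition were likewise intermediate. Of 11 genes of MHC class I and the interferon response, 8 were lower than in reporter-positive cells (5 without library b) and none higher, and H2-K1, Ifitm1 and Ifitm3 were higher than in other Lin-kit+ cells. Ifitm1 stood at 819, 888 and 895 CPM, against 215 to 231 and against 1667 and 1713 (1.75 ± 0.16, adjusted p = 8.4e-26, and -0.85 ± 0.10, adjusted p = 0.000654).

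Of the GIMAP genes, which encode GTPases of lymphocytes and stem cells, Gimap1, Gimap5 and Gimap6 were higher than in other Lin-kit+ cells (3 of 4 tested) and 4 of 5 were lower than in reporter-positive cells. Gimap6 stood at 114, 115 and 92.6, against 14.0, 14.9 and 15.3 and against 280.4 and 291. Gimap1 was graded over the Lin-kit+ libraries in both sets, at 102, 93.8 and 48.1 in stem-like and 17.2, 10.9 and 4.85 in other cells.

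Immediate early genes, which respond within minutes to growth signals and to handling of cells, were lower than in reporter-positive cells for 6 of 6 tested. The count was 0 with DESeq2 and without library b, 1 without library c or without the HSC-Fgd5+ library, and 4 without the Fgd5+ library. Ier2 stood at 144, 102 and 39.7 in stem-like and 119, 92.0 and 45.3 in other cells of a, b and c, so the libraries differed here by more than the sets of cells within a library. Ribosomal protein genes were higher than in reporter-positive cells for 32 of 81, by a median of 0.16, or 11 of 81 with library totals, 16 without library b and 7 without the HSC-Fgd5+ library. Against other Lin-kit+ cells the number called depended on the scaling. Under the main scaling 4 of 81 were lower, where 6.84% of all genes were lower, and under library totals 61 of 81 were higher. Their median log2 fold change was -0.07 against -0.14 for all genes under the main scaling, and 0.31 against 0.21 under library totals. In all UMIs they summed to 380099, 373590 and 359777 CPM in stem-like cells of a, b and c. The other Lin-kit+ cells had 308881, 302313 and 292603. Of 13 mitochondrial genes mt-Co1 alone was called against reporter-positive cells. It was lost with DESeq2, with at least 3 stem genes, and without any of libraries a, b, c or HSC-Fgd5+, whereas 5 genes were lower without Fgd5+. In held-out UMIs 4 of 13 were lower than in other Lin-kit+ cells, while library totals gave 3 higher and 1 lower. The HSC-Fgd5+ library summed to 48027 CPM over these genes, against 33402.5 in the Fgd5+ library.

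**Figure D4:**
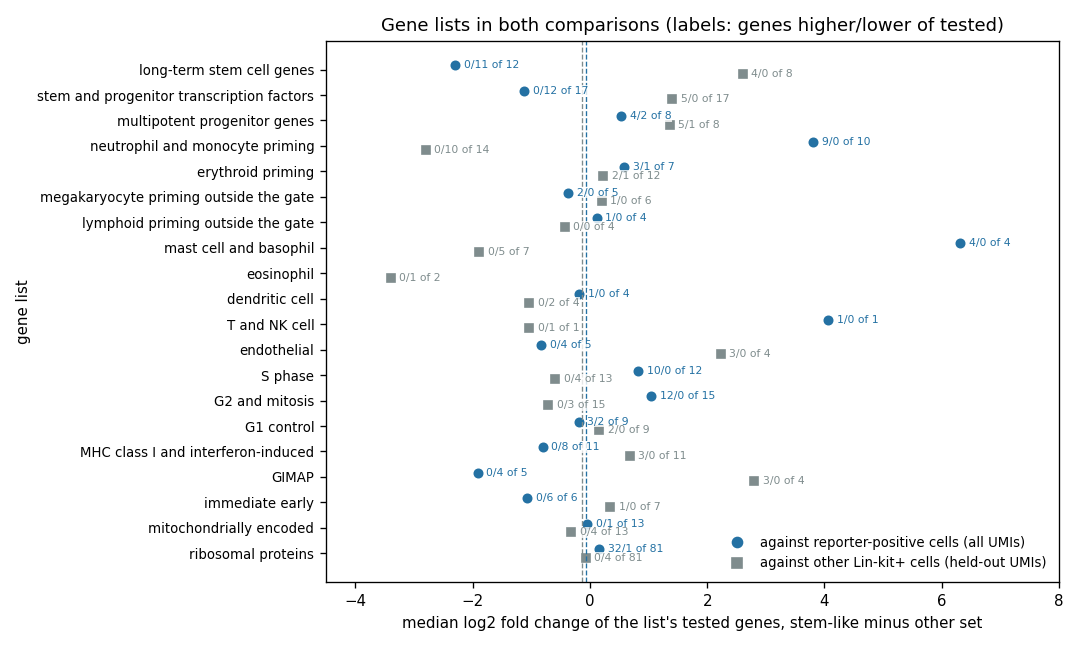
Median log2 fold change (x axis) of the tested genes of 20 lists outside the gate (y axis), stem-like cells against reporter-positive cells (circles) and against other Lin-kit+ cells in held-out UMIs (squares). Labels give the genes called higher and lower of those tested, and dashed lines the medians of all genes (-0.06 and -0.14). Long-term stem cell genes had medians of -2.29 and 2.60, and neutrophil and monocyte genes 3.80 and -2.80.

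A set of 159 Lin-kit+ cells failed the gate for a UMI of Flt3 or Dntt alone. Of these, 108 lay in the cluster led by Wfdc17 and Ccl5, which held the largest group of stem-like cells. They are described here without a test, since the gate separates them. In libraries a, b and c they had Cd34 at 467, 454 and 482 CPM, against 330, 326 and 332 in stem-like cells, and Satb1, a chromatin organizer of lymphoid cells, at 133, 156 and 78.6 against 26.6, 26.0 and 22.9. Il12a stood at 92.2, 178 and 106 against 22.8, 49.5 and 20.5. Esam (11.5, 7.44 and 17 against 49.3, 36.5 and 28.9) and Myct1 (57.7, 29.7 and 57.4 against 110, 117 and 87.8) were lower in these cells in each library, and Slamf1 had no UMI in them. Hlf and Meis1, which both sets had to carry in part, were at like levels, Hlf at 150, 119 and 149 against 137, 177 and 143.

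Leaving out the 19 stem-like cells of the reporter-positive cluster moved few of these values. Against reporter-positive cells 1943 genes were then called, 1814 of them among the 1856 called with all cells and in the same direction. Against other Lin-kit+ cells 851 were called, 802 of them among the 863. Restricting the cells to those with at least 3 stem genes left 367 and 92 calls, on 97 cells and fewer held-out UMIs.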

How the data were processed

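Single cells were profiled with 10x Chromium 3′ chemistry. The authors aligned the reads and counted UMIs with Cell Ranger 1.3 and 2.1 on mm10, used Seurat 2.3.4 (per the submitters' processing notes), and deposited 1 table of UMI counts (15287 genes, 12893 cells, not normalized), in which libraries were told apart by barcode suffix. Total UMI counts were 10000606, 18683092 and 36080242 for Lin-kit+ libraries a, b and c, and 4168367 and 2166655 for Fgd5+ and HSC-Fgd5+ cells. Authors' cell type labels were not used here.

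The gate was applied to raw counts. Counts were summed per library and set of cells (263600, 383974 and 831174 UMIs for stem-like cells), and sums were compared in R 4.3.3 with edgeR 4.0.16 (TMM, filterByExpr, two-sided quasi-likelihood tests, Benjamini-Hochberg over all tested genes). The library was a block where both sets came from the same libraries. DESeq2 1.42.0 was an alternative. Fold changes are stem-like minus the other set, with SE. Cells were clustered with scanpy 1.11.5 (2000 variable genes, 20 components, 15 neighbours, Leiden resolution 1), leaving out the 17 genes of the gate. Descriptive folds used a pseudocount of 5 CPM. No cell or doublet was removed in the main results. The scripts were tested on simulated data.

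The genes of the gate, the gene lists and the tests were chosen with earlier results of these data known. Beside the list members, the text names the 10 genes with the largest fitted fold change in each direction among called genes with at least 100 UMIs whose sets did not overlap. Some genes that these rules name are not reported here. Alternatives were another tool, library totals, no filter on low counts, a cell filter, doublets left out, other thresholds of the gate, other divisions of the UMIs and leaving out each library.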

Additional observations from a re-analysis of the deposited data

How the results depend on the processing

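The share of stem-like cells was 2.90% by the gate, 0.780% with at least 3 stem genes, 14.4% with at least 1, 4.39% when Flt3 and Dntt were not used and 0.618% after thinning to 1000 UMIs per cell. Without each library in turn it was 2.78% to 3.06%. Genes called against reporter-positive cells numbered 1856, and 367 with at least 3 stem genes. Without each library in turn they numbered 833 to 2120 (833 without HSC-Fgd5+, 834 without Fgd5+, 1043 without c, 1266 without b), and with no filter on low counts 2557. Genes called against other Lin-kit+ cells in held-out UMIs numbered 863, then 410 with DESeq2 and 92 with at least 3 stem genes, and 448 to 714 without each library (448 without c, 545 without b). With DESeq2, 379 of the 863 were called again in the same direction, and 1176 of the 1856. No gene was called in opposite directions under any of the alternatives run. The stem-like and other cells of a library were paired, and without this replicate block 653 genes were called, 627 of them among the 863. Against reporter-positive cells no pairing was used, since replicate numbers there only name libraries.

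Part of the named genes was followed through the alternatives. Of 682 of their fold changes recomputed against reporter-positive cells, 640 kept direction and call, 42 lost the call and none reversed. Of 710 in held-out UMIs, 579 kept both, 123 lost the call and 8 reversed, all in Ptprc, Gata2 and Egr1. Ptprc was -0.022 with no filter on low counts, -0.090 with doublets left out, -0.0089 with at least 3 stem genes, -0.58 to 0.29 without each library (-0.58 without c) and -0.22 with another division of the UMIs. Gata2 was -1.06 with at least 3 stem genes and -0.59 with another division, and Egr1 -8.19 with at least 3 stem genes. Egr1 alone of the 3 was called in the main test. Among other list members called in held-out UMIs, Erg had the opposite sign with at least 3 stem genes and Ube2c with the parts of the UMIs exchanged. The cause of these changes was not tested. Held-out counts for stem-like cells total 340173 UMIs, so a level of 8.82 CPM rests there on 3 counts and lower levels on fewer.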

Other observations

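Of the T and NK list, Nkg7 stood at 372, 443 and 558 CPM in the stem-like cells of a, b and c, against 39.1 and 18.5 in reporter-positive cells (log2 fold change 4.07 ± 0.30, edgeR adjusted p = 4e-05). B2m, the light chain of MHC class I, stood at 3638, 3651 and 3702, between 2386 to 2599 in other Lin-kit+ and 4645 to 4845 in reporter-positive cells. In the HSC-Fgd5+ library the cells that failed the gate had a median of 7.51% mitochondrial UMIs and 2132.5 UMIs per cell, against 4.05% and 3913 in those that passed. With cells over 10% mitochondrial UMIs or under 1000 UMIs left out, 86.2% of HSC-Fgd5+ cells passed, against 80.3% of all.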
